A study of Homo sapiens with 3 samples.

Results

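The 6 genes described here are the protein genes of the human mitochondrial genome that lie outside complex I: MT-CYB of complex III, MT-CO1, MT-CO2 and MT-CO3 of complex IV, and MT-ATP6 and MT-ATP8 of complex V. They were chosen by gene name and are 6 of 13 mitochondrially encoded protein genes and 6 of 63241 genes in the table. Ribosome profiling (Ribo-seq) sequences the RNA fragments that ribosomes shield from nuclease. It was performed in 3 HEK293T derivatives, which expressed p53 as WT, G245S or R273H. The study asked whether the mutants altered ribosome occupancy of transcripts whose 3′UTRs they bind. It also examined the mitochondrial transcripts of the MitoCarta inventory as a set. The study reported that set enriched among transcripts that gained occupancy in the mutants. All 3 groups share the parental line, a human embryonic kidney line in which SV40 large T antigen can bind p53, and all received cycloheximide for 2 min before lysis. The groups differ in the p53 construct, which per the study's methods was delivered by lentivirus with puromycin selection. The labels also call the expression transient, and the treatment label of both mutants names the wild-type construct, so groups follow the sample titles. Each group holds 3 libraries from 3 culture dishes that were pooled at reverse transcription, so group and pool cannot be told apart, and p-values measure the spread between dishes of a pool.

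The mitochondrial genome is transcribed into long precursor RNAs, and the tRNAs between many of the genes are cut out to release most of the mRNAs. A dedicated ribosome in the matrix, smaller than the cytosolic ribosome and not stopped by cycloheximide, translates them with a genetic code in which TGA encodes tryptophan and ATA methionine. The products are hydrophobic core subunits of the inner membrane that are built together with nuclear-encoded partners. Cytochrome b (MT-CYB) carries heme groups that take up electrons when complex III oxidizes ubiquinol. MT-CO1 holds the site of oxygen reduction in complex IV, MT-CO2 accepts electrons from cytochrome c, and MT-CO3 completes the catalytic core. MT-ATP6 forms the proton path of ATP synthase beside its rotor ring, and MT-ATP8 is a small subunit next to it.

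The first 30 bases of the coding sequences of complexes IV and V are shown to place these members and their start codons (in capitals). All 6 lie on the plus strand of the mitochondrial chromosome (GRCh38), in single exons with no intron. The genes span chrM:14747-15887 for MT-CYB, chrM:5904-7445 for MT-CO1, chrM:7586-8269 for MT-CO2, chrM:9207-9990 for MT-CO3, chrM:8527-9207 for MT-ATP6 and chrM:8366-8572 for MT-ATP8.
MT-CO1: ATGttcgccgaccgttgactattctctaca
MT-CO2: ATGgcacatgcagcgcaagtaggtctacaa
MT-CO3: ATGacccaccaatcacatgcctatcatata
MT-ATP6: ATGaacgaaaatctgttcgcttcattcatt
MT-ATP8: ATGccccaactaaatactaccgtatggccc
All 6 open with ATG, whereas 3 complex I genes (MT-ND1, MT-ND3 and MT-ND5) open with ATA and MT-ND2 with ATT. The members hold from 2 (MT-ATP8) to 16 (MT-CO1) in-frame TGA codons, and MT-CO3 and MT-CYB end on a lone T that becomes a stop codon only when the mRNA is polyadenylated.

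MT-ATP8 and MT-ATP6 are read in different frames from one mRNA and share 46 bases, chrM:8527-8572, so a footprint there cannot be given to one of them by position alone. MT-ATP6 and MT-CO3 share 1 base, chrM:9207-9207. The first sequence below (chrM:8518-8547, plus strand) has the MT-ATP6 start codon in capitals within MT-ATP8, the next (chrM:8543-8572) has the MT-ATP8 stop codon in capitals within MT-ATP6, and the last (chrM:9192-9221) has the MT-CO3 start codon in capitals at the end of MT-ATP6.
MT-ATP6 start: agaaccaaaATGaacgaaaatctgttcgct
MT-ATP8 stop: tcgcttcattcattgcccccacaatccTAG
MT-CO3 start: gcacgacaacacataATGacccaccaatca

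The 9 libraries held 18.7 to 24.6 M counts. MDM2 and CDKN1A, transcriptional targets of p53, were lower in both mutants than in WT. CDKN1A averaged 61.0 ± 2.27 CPM (counts relative to the TMM-scaled library size; mean ± SD, n = 3 dishes) in WT, 16.1 ± 0.337 in G245S and 13.8 ± 0.514 in R273H. Of the markers examined, the epithelial genes averaged 113 CPM (KRT18), 37.5 (KRT8), 6.63 (CDH1) and 4.26 (EPCAM) over all libraries, and the embryonic kidney genes SIX2, PAX2 and EYA1 13.9, 6.39 and 5.12. The neurofilament genes NEFM, NEFL and INA, a class that HEK293 lines are known to express, averaged 271, 108 and 14.1 CPM. Among markers of other cell types PTPRC, CD3E, PECAM1, CDH5, ALB and APOA1 averaged at most 0.237 CPM, and the fibroblast markers COL1A1 and COL3A1 29.4 and 4.41 CPM. Libraries differed in composition: the Spearman correlation of a library's deviations with coding length over 10886 genes was -0.18 to -0.14 in WT, -0.011 to 0.12 in G245S and 0.14 to 0.19 in R273H. With GC content it was -0.18 to 0.26 in WT, -0.18 to 0.34 in G245S and -0.42 to -0.14 in R273H. Dish 3 had the lowest GC correlation of each group. Dish 3 of each group stood apart most, with a chi-square per degree of freedom of 1.88 to 2.62 against the other dishes of its group and 1.48 to 1.56 between dishes 1 and 2.

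The 6 members took 0.201% ± 0.00228 of all counts in WT, 0.190% ± 0.00204 in G245S and 0.178% ± 0.00197 in R273H (SD, n = 3 dishes). The 7 complex I genes of the same genome took 0.138% ± 0.00211, 0.129% ± 0.000894 and 0.128% ± 0.00142. Single members had 1045 to 14666 counts in a dish, for which counting error alone is 0.833% of the group mean for MT-CO1 in R273H and 2.95% for MT-ATP8 in G245S. Between dishes the coefficient of variation ran from 0.888% (MT-CYB in R273H) to 6.40% (MT-ATP8 in WT).

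Per kilobase of gene, the members were among the most footprinted mitochondrial genes. In WT, MT-CO3 averaged 434 ± 11.1 CPM per kb and MT-CO1 433 ± 4.90, and their dish ranges overlapped with each other, as did those of MT-CO1 and MT-CO2 (410 ± 18.8). MT-CYB (368 ± 7.68) and MT-ATP6 (342 ± 7.09) followed, each apart from its neighbours. MT-ATP8, at 294 ± 18.8 CPM per kb, overlapped MT-ND5 (314 ± 4.65) above it and MT-ND3 (290 ± 11.1) below it. The other complex I genes lay between 119 ± 4.37 (MT-ND1) and 211 ± 3.45 CPM per kb (MT-ND6). The top 5 places had the same order in G245S and R273H, where MT-CO3 led with 436 ± 10.7 and 406 ± 4.52 CPM per kb. In G245S the dishes of MT-CYB and MT-ATP6 overlapped.

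**Figure D1:**
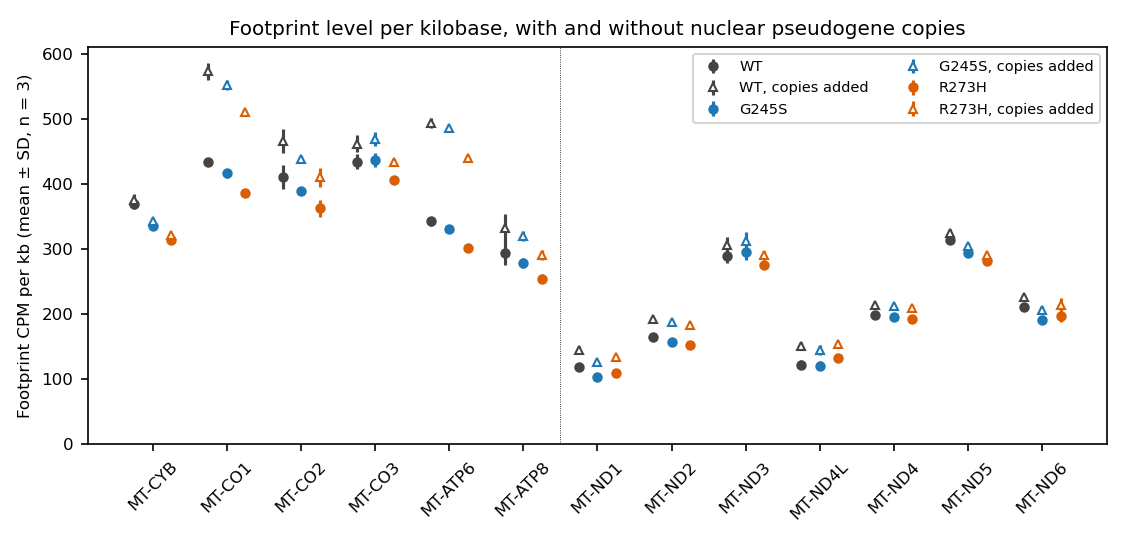
Footprint level per kilobase (CPM per kb, mean ± SD, n = 3 dishes) of the 13 mitochondrially encoded protein genes in WT, G245S and R273H, from the gene's own counts (filled circles) and with the counts of its nuclear pseudogene copies added (open triangles). Adding copies raised MT-CO1 in WT from 433 to 572 and MT-ATP6 from 342 to 493 CPM per kb, and MT-CYB only from 368 to 376.

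The order depends on reads that the genes share with the nuclear genome, which holds old insertions of mitochondrial DNA annotated as pseudogenes. Of all 30-base windows of a member, about the length of a footprint, 71.1% of those in MT-CO1, 64.7% in MT-ATP6, 51.6% in MT-CO2, 46.6% in MT-ATP8 and 46.1% in MT-CO3 occurred without mismatch in the nuclear genome, against 7.73% in MT-CYB. For 5 of the members the leading copy belongs to 1 insertion on chromosome 1. Among the members, the longest shared run, chrM:6690-6934, was that of MT-CO1 with MTCO1P12 (chr1:631074-632616, plus strand). The following 30 bases from the middle of the longest runs are given because a footprint of that sequence fits either place: MT-CO1 at chrM:6798-6827 and chr1:631969-631998, MT-ATP6 at chrM:8775-8804 and, in MTATP6P1, chr1:633944-633973, and MT-CYB at chrM:14973-15002 and, on the opposite strand, chr5:134923794-134923823 in MTCYBP18.
MT-CO1 and MTCO1P12: gtagacacacgagcatatttcacctccgct
MT-ATP6 and MTATP6P1: cctcctcggactcctgcctcactcatttac
MT-CYB and MTCYBP18: gctgaatcatccgctaccttcacgccaatg

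Counts listed at the copies amounted to 30.6% ± 0.385 of the summed counts of MT-ATP6 and its copies in WT, 24.3% ± 1.15 for MT-CO1, 11.9% ± 0.704 for MT-CO2, 11.6% ± 1.12 for MT-ATP8, 5.96% ± 0.435 for MT-CO3 and 1.96% ± 0.0674 for MT-CYB (SD, n = 3). The counts of every member were fractional in 9 of 9 libraries, and the rule for sharing a read among several places is not given in the sources used here. From which place a shared read came was not tested. MTCO1P12 averaged 156 ± 11.4 CPM in WT, 150.3 ± 1.96 in G245S and 140.5 ± 4.53 in R273H, and MTATP6P1 102 ± 0.524, 104 ± 3.13 and 92.96 ± 1.61. With copies added, the highest levels per kb in WT were those of MT-CO1 (572 ± 13.3) and MT-ATP6 (493 ± 7.54), and MT-CO3 moved to the fourth place with 461 ± 13.1, so the order among members rests on how shared reads were assigned.

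In R273H, footprints on all 6 members were lower than in WT. Mean CPM fell by 6.55% for MT-CO3, the least, and by 14.7% for MT-CYB, the most, and all 6 passed the test (edgeR quasi-likelihood test, Benjamini-Hochberg adjusted p under 0.05 over 19820 genes). The background share of genes called lower in this contrast was 14.6%, and 25.8% among the 10% of genes with the highest mean counts, which hold every member except MT-ATP8. In the next 10%, which hold MT-ATP8, it was 23.1%. No R273H dish overlapped a WT dish for any member, which was also so, with R273H lower, for 4 of 7 complex I genes and for 20.9% of all genes tested. Footprints came from gradient monosomes of cell lysates. From these footprints, fewer mitochondria per cell, fewer footprints per mitochondrion and a different sampling of mitochondrial ribosomes cannot be told apart. By microscopy the study reported a higher MitoTracker Green signal, its measure of mitochondrial mass, in R273H than in WT cells. It also reported higher respiration. How these measures relate to the footprints was not tested.

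MT-CYB read 428, 411 and 422 CPM in the WT dishes and 361, 355 and 359 in the R273H dishes. Every R273H dish was below every WT dish, and the gap between the groups exceeded the spread within each. The log2 fold change was -0.23 (SE 0.024, adjusted p = 2.35e-08), the largest fall of the 6. MT-CYB is also the member with the least sequence in common with the nuclear genome.

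MT-CO1 read 665, 663 and 677 CPM in WT and 595, 585 and 605 in R273H. The groups were apart, and the log2 fold change was -0.17 (SE 0.023, adjusted p = 2.18e-06). MT-CO2 read 272.8, 273.8 and 295.6 CPM in WT and 245.01, 241.1 and 258.2 in R273H. Dish 3 was the highest of its group in both, and the lowest WT dish was still above the highest R273H dish. The log2 change from WT was -0.18 (SE 0.031, adjusted p = 6.56e-05). MT-CO3, the third core subunit of complex IV, read 344, 330 and 347 CPM in WT and 321, 314 and 319 in R273H. It had the smallest fall, at -0.098 on the log2 scale (SE 0.026, adjusted p = 0.00527), and the groups did not overlap.

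MT-ATP6 read 238, 232 and 229 CPM in WT and 210, 203 and 202 in R273H. The log2 fold change was -0.19 (SE 0.027, adjusted p = 6.45e-06), with the groups apart. MT-ATP8, the shortest and least covered member, read 64.4, 56.7 and 61.3 CPM in WT and 52.8, 51.0 and 54.0 in R273H. Its WT dishes were the most spread of any member, and the log2 change from WT was -0.21 (SE 0.045, adjusted p = 0.000753).

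**Figure D2:**
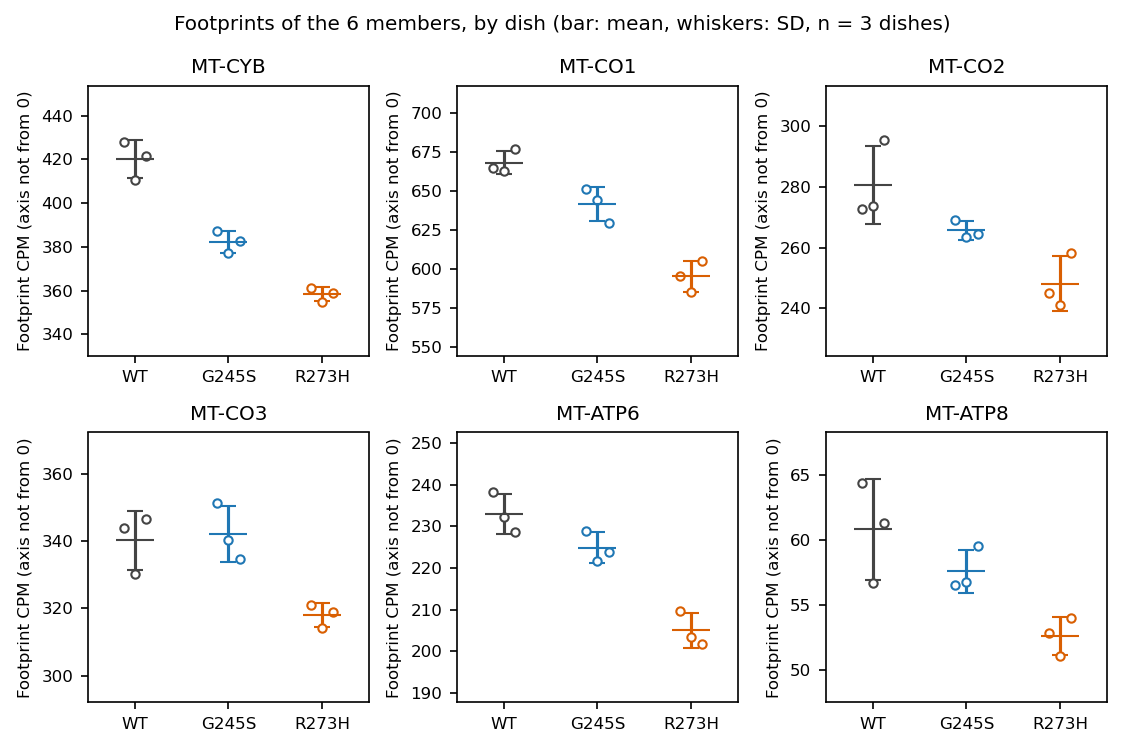
Footprint CPM of each member in every dish (open circles) of WT, G245S and R273H, with the group mean and SD (n = 3 dishes); axes do not start at 0. The R273H dishes lie below all WT and all G245S dishes in each panel, for example at 355 to 361 CPM for MT-CYB against 411 to 428 in WT.

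In G245S, 1 member passed the test against WT, MT-CYB, beside a background of 12.1% of genes called lower, which was 18.3% in the 10% of genes with the highest mean counts and 19.8% in the next 10%. MT-CYB read 387, 377 and 383 CPM in the G245S dishes, below all WT dishes and above all R273H dishes, and its log2 change from WT was -0.14 (SE 0.024, adjusted p = 0.000109). MT-CO1 and MT-CO2 did not overlap with WT either but missed the threshold, and 18.7% of all genes had every G245S dish below every WT dish. MT-CO1 read 651, 644 and 629 CPM in G245S (log2 fold change -0.059, SE 0.023, adjusted p = 0.0631), and MT-CO2 read 269, 263 and 264 CPM (-0.079, SE 0.031, adjusted p = 0.0631).

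The G245S dishes of the remaining members overlapped those of WT. MT-CO3 read 351, 340 and 335 CPM, and its log2 change was 0.0072 (SE 0.026, adjusted p = 0.882). MT-ATP6 read 229, 222 and 224 CPM (log2 fold change -0.052, SE 0.028, adjusted p = 0.178). MT-ATP8 read 56.5, 56.7 and 59.5 CPM (-0.078, SE 0.046, adjusted p = 0.231). Its standard error was the largest of the members, so a change of the size seen for MT-CYB was harder to detect.

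Both comparisons use the same WT dishes, so the mutants were also set against each other. The mean of each member was higher in G245S than in R273H, with no overlap between dishes, and 4 of 6 passed the test, against a background of 1.86% of genes called higher in G245S and 8.98% in the 10% of genes with the highest mean counts. Such a gap between dishes, with G245S higher, was seen for 11.6% of all genes tested, and of the 7 complex I genes 5 did not overlap, 3 of them higher and 2 lower in G245S. The differences in log2 were 0.094 for MT-CYB (SE 0.024, adjusted p = 0.0320), 0.11 for MT-CO1 (SE 0.023, adjusted p = 0.00763), 0.11 for MT-CO3 (SE 0.026, adjusted p = 0.0243) and 0.13 for MT-ATP6 (SE 0.027, adjusted p = 0.00578). MT-CO2 differed by 0.099 (SE 0.031, adjusted p = 0.0899) and MT-ATP8 by 0.13 (SE 0.046, adjusted p = 0.128). The calls rested on single dishes: 0 members were called by edgeR without G245S dish 1, where all 6 had an unadjusted p under 0.05, and 1 without G245S dish 2 or without R273H dish 2, 2 without R273H dish 1. The differences themselves stayed between 0.079 and 0.15 for every member in these 4 fits. Without G245S dish 3, 4 members were called, and 3 without R273H dish 3. When a WT dish was left out, 4 or 5 members were called.

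The complex I genes of the same genome, which are cut from the same precursors except for MT-ND6 on the other strand, were set beside the members. No test compared them with the members, and their values overlapped. For example, MT-ND5 fell more in R273H than MT-CO3 (-0.098). Against WT, 4 of 7 fell in R273H (MT-ND5, MT-ND1, MT-ND2 and MT-ND6), with log2 fold changes of -0.16 for MT-ND5 (adjusted p = 4.64e-06), -0.11 for MT-ND1 (adjusted p = 0.0109), -0.11 for MT-ND2 (adjusted p = 0.00306) and -0.099 for MT-ND6 (adjusted p = 0.0330). MT-ND4L had a log2 fold change of 0.12 (adjusted p = 0.0925), MT-ND4 -0.039 and MT-ND3 -0.076. DESeq2 called 2 of the 7 lower in R273H, and all 6 members. The median log2 fold change was -0.18 over the members, -0.099 over the complex I genes and -0.0024 over all genes tested. In G245S 3 of 7 complex I genes fell, led by MT-ND1 (log2 fold change -0.20, adjusted p = 5.16e-05). Between the mutants edgeR and DESeq2 each called 0 of 7 complex I genes, of which 4 had an unadjusted edgeR p under 0.05, 2 in each direction.

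**Figure D3:**
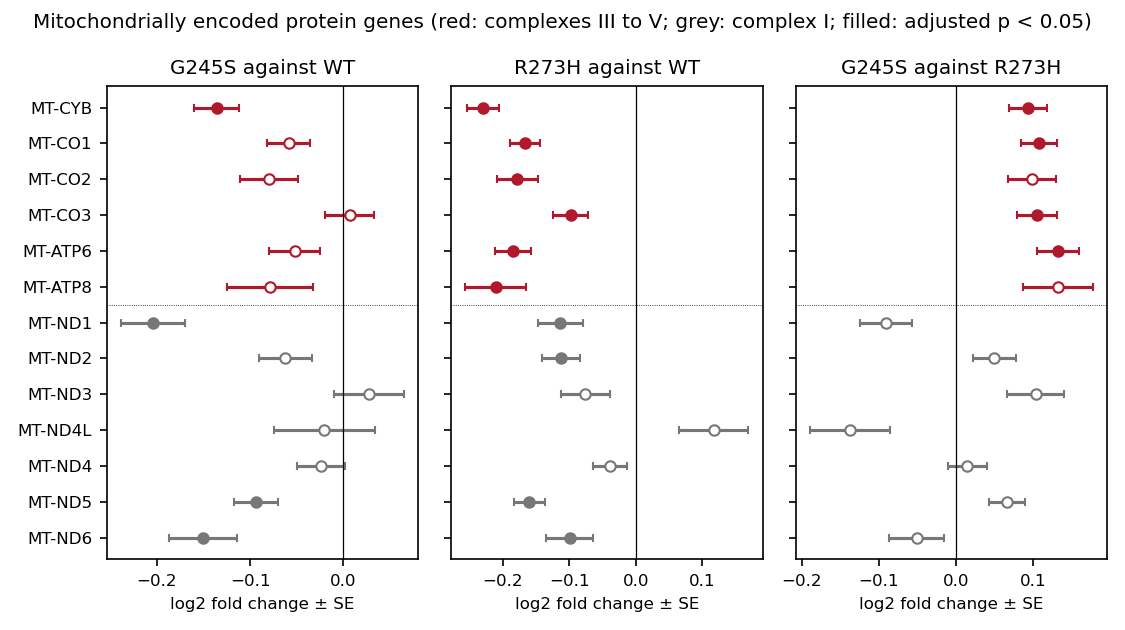
Log2 fold change with SE of the 13 mitochondrially encoded protein genes in each contrast (red, complexes III to V; grey, complex I; filled, adjusted p under 0.05). In R273H against WT the 6 members lie between -0.23 and -0.098, while the complex I genes spread from -0.16 for MT-ND5 to 0.12 for MT-ND4L.

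The members made up 59.3% ± 0.302 of the counts of the 13 genes in WT, 59.5% ± 0.0940 in G245S and 58.2% ± 0.0185 in R273H (SD, n = 3 dishes). The R273H share was 1.11 percentage points below WT and the dishes did not overlap (exact permutation test, two-sided, p = 0.10, the smallest that 3 against 3 dishes allow). The share in G245S overlapped that of WT (difference 0.196 points, exact permutation p = 0.40). When counts were scaled to the total of the 13 genes, which shifts the median of all genes by 0.14 in R273H against WT, MT-CYB alone was called lower in R273H (log2 fold change -0.084, adjusted p = 0.00579). That scale moved the whole table, with 7925 of 19820 genes called in R273H against WT, 5567 in G245S against WT and 1848 between the mutants. On that scale MT-CO3 was at 0.048 (adjusted p = 0.137), and the other members at -0.065 to -0.022. In G245S the same scale left MT-CYB lower (-0.065, adjusted p = 0.0435) and MT-CO3 higher (0.078, adjusted p = 0.0208). MT-CYB thus took a smaller share of mitochondrial footprints in both mutants, 11.9% ± 0.104 in G245S and 11.7% ± 0.0919 in R273H against 12.4% ± 0.109 in WT. MT-CO3 took 10.6% ± 0.135 in G245S, 10.4% ± 0.0713 in R273H and 10.1% ± 0.120 in WT. Between the mutants edgeR called 0 of 6 members on this scale, with 0 at an unadjusted p under 0.05.

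Composition of the libraries moved with the groups, so the contrasts were repeated with the trend on coding length and GC content removed from each library. All 6 members were still called lower in R273H, at log2 fold changes of -0.24 to -0.073, and all 6 were called higher in G245S than in R273H (0.11 to 0.17). Of 7 complex I genes, 4 were called lower and 1 higher in R273H, and 1 was called higher in G245S than in R273H. This fit called 21.5% of 13602 genes higher and 17.1% lower in R273H against WT, 21.4% and 15.9% in G245S against WT, and 2.16% higher and 0.897% lower in G245S against R273H. MT-ATP8, the shortest, went from -0.078 to 0.051 in G245S against WT (adjusted p = 0.363). Leaving out dish 3 of every group also left all 6 called lower in R273H (-0.23 to -0.084) and MT-CYB alone in G245S. Adding the pseudogene copies to each member gave 6 calls in R273H, from -0.23 to -0.089.

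**Figure D4:**
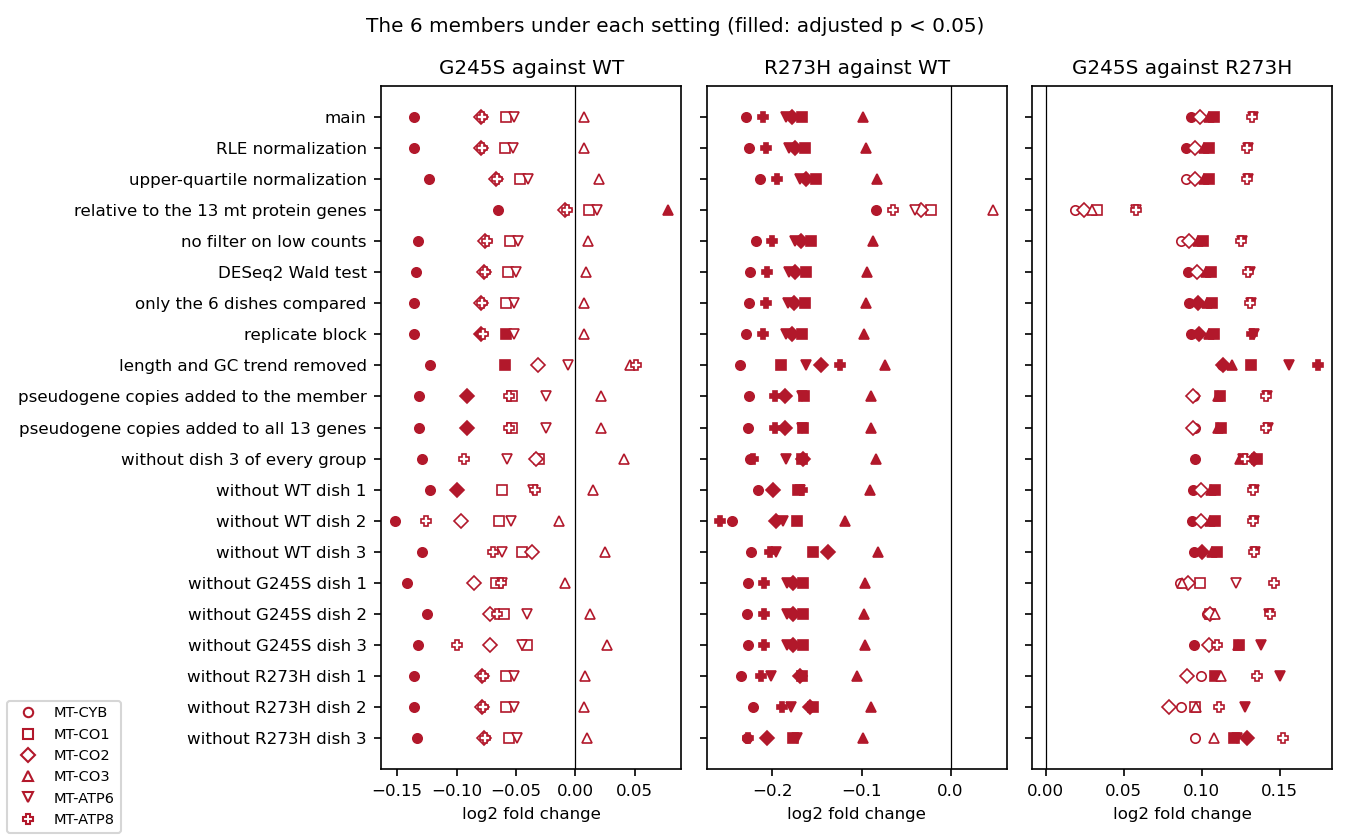
Log2 fold change of each member (marker shape) in the 3 contrasts under every setting, with filled markers at adjusted p under 0.05. In R273H against WT the members stay below 0 in every row except that scaled to the 13 mitochondrial genes, where MT-CO3 is at 0.048; in G245S against R273H they stay above 0 in all rows.

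Of 15 pseudogene copies of the members with a mean of at least 10 counts, 5 were called in R273H against WT, all lower, and 2 in G245S against WT, 1 of them lower. Over all genes tested, 14.6% were called lower in R273H, and 12.1% lower and 12.6% higher in G245S. In R273H, MTCO1P12 fell by 0.15 (log2; adjusted p = 0.00585), MTATP6P1 by 0.13 (adjusted p = 0.00364) and MTCO2P12 by 0.23 (adjusted p = 0.00237). MTCO3P12 was at 0.036 in R273H (adjusted p = 0.747) and rose by 0.22 in G245S (adjusted p = 0.0207). Since each copy shares reads with its gene, these values are no separate measurement.

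Other RNAs of the mitochondrial genome, which are not translated, were also counted. The large rRNA MT-RNR2 fell by 0.18 in R273H (log2; SE 0.036, adjusted p = 0.00236), and the small rRNA MT-RNR1 had a log2 fold change of 0.027 (adjusted p = 0.710). Of 22 tRNA genes, 6 were called lower and 3 higher in R273H, and 5 lower and 0 higher in G245S. The background shares were 14.6% lower and 14.2% higher in R273H, and 12.1% lower and 12.6% higher in G245S. The tRNA MT-TQ fell by 0.57 (log2; adjusted p = 1.76e-07) and MT-TW rose by 0.65 (adjusted p = 0.000398) in R273H. In G245S MT-TH fell by 0.37 (adjusted p = 0.000292). How much of the signal on the members is footprints of the mitochondrial ribosome and how much is other protected RNA was not tested, and without matched RNA-seq here mRNA amount and translation cannot be told apart.

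**Figure D5:**
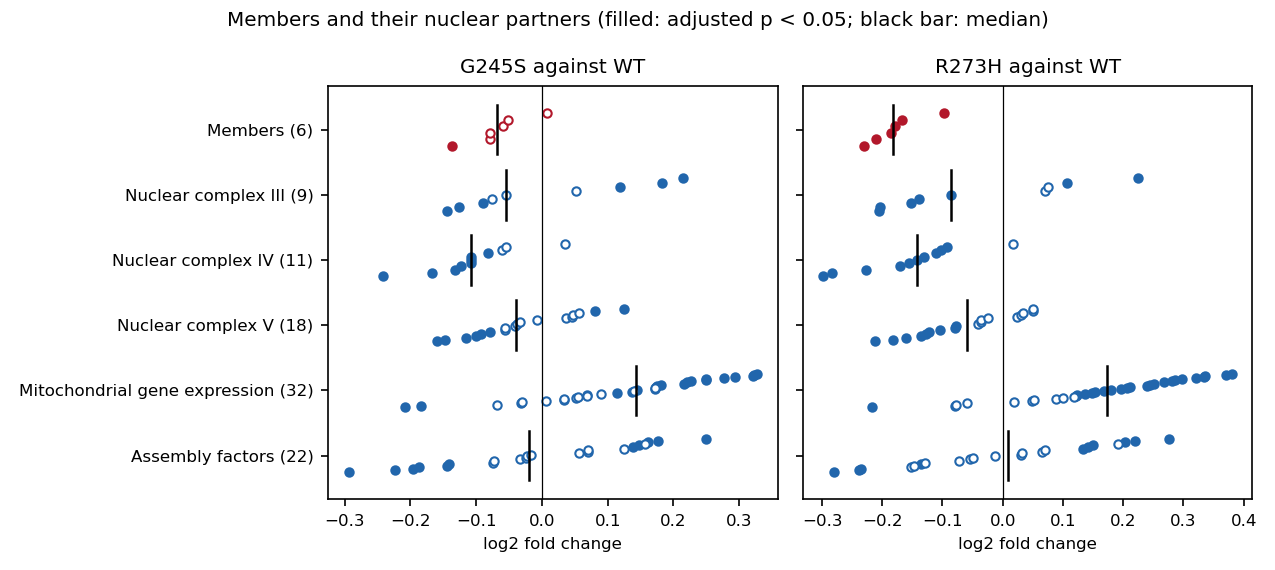
Log2 fold change against WT of the members and of 5 lists of nuclear genes, 1 point per gene (filled, adjusted p under 0.05; black bar, median; number of genes in parentheses). In R273H the medians are -0.18 for the members, -0.14 for nuclear subunits of complex IV and 0.17 for genes of mitochondrial gene expression.

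Nuclear subunits that assemble with the members are made by cytosolic ribosomes. The background share called higher was 12.6% in G245S and 14.2% in R273H against WT, and that called lower between the mutants 0.732%. Among the 10% of genes with the highest mean counts, the share called higher was 35.6% in G245S and 33.5% in R273H. Whether the nuclear genes listed here and below were called higher more often than genes of similar counts was not tested. For complex III, 5 of 9 nuclear subunits fell and 2 rose in R273H (median log2 fold change -0.086), and 3 fell and 3 rose in G245S (-0.055). UQCR10, a small subunit, fell by 0.21 in R273H (adjusted p = 2.34e-06), and UQCRQ, which binds next to cytochrome b, by 0.20 (adjusted p = 2.65e-06). The core protein UQCRC2 rose by 0.22 in R273H (adjusted p = 1.14e-07) and by 0.21 in G245S (adjusted p = 3.47e-07), and CYC1, the cytochrome c1 subunit, rose by 0.11 and 0.18 (adjusted p = 0.00453 and 1.65e-05). With the length and GC trend removed 4 rose and 1 fell in R273H (median 0.0055), and 4 rose and 0 fell in G245S (0.051).

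For complex IV, 10 of 11 nuclear subunits fell and 0 rose in R273H (median -0.14), and 8 fell and 0 rose in G245S (-0.11). COX6B1 fell by 0.30 in R273H (adjusted p = 4.48e-10) and by 0.24 in G245S (adjusted p = 3.33e-08). COX8A fell by 0.28 in R273H (adjusted p = 1.49e-07) and was 0.17 higher in G245S than in R273H (adjusted p = 0.00278). Most of these subunits have short coding sequences, and with the length and GC trend removed 4 fell and 1 rose in R273H, and 1 fell and 2 rose in G245S. For complex V, 9 of 18 nuclear genes fell and 0 rose in R273H (median -0.059), and with the trend removed 3 fell and 4 rose. In G245S 6 fell and 2 rose, and with the trend removed 0 fell and 7 rose (median 0.055). The trend-removed counts of complex V in R273H are near that fit's background. ATP5F1B, the catalytic beta subunit, rose by 0.12 in G245S (adjusted p = 4.27e-05), and ATP5ME fell by 0.21 in R273H (adjusted p = 5.65e-06).

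Of 32 nuclear genes that transcribe, process and translate mitochondrial RNA, 22 rose and 1 fell in R273H (median log2 fold change 0.17), and 18 rose and 2 fell in G245S (0.14). With the trend removed the counts in R273H were again 22 and 1. LRPPRC, which stabilizes mitochondrial mRNAs, averaged 442 ± 19.7 CPM in WT, 554 ± 21.3 in G245S and 575 ± 9.27 in R273H, and rose by 0.33 and 0.38 (log2; adjusted p = 1.04e-08 and 5.97e-10). TBRG4 (FASTKD4), another factor of mitochondrial mRNA stability, rose by 0.32 in G245S (adjusted p = 2.06e-08), and the release factor gene MTRF1L by 0.37 in R273H (adjusted p = 0.000472). MTIF3, an initiation factor of the mitochondrial ribosome, fell by 0.22 in R273H (adjusted p = 0.0198), as it did by 0.21 in G245S (adjusted p = 0.0346). DESeq2 called 18 higher and 0 lower in R273H, so MTIF3 was called by edgeR only. Between the mutants edgeR and DESeq2 each called 0 of the 32 genes, of which 7 had an unadjusted edgeR p under 0.05.

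Factors that insert or assemble the members moved both ways. Of 22, 6 rose and 4 fell in R273H (median 0.0091), and 5 rose and 6 fell in G245S (-0.019). With the trend removed 10 rose and 3 fell in R273H (median 0.050), and 8 rose and 3 fell in G245S (0.060). BCS1L, which acts late in complex III assembly, rose by 0.22 in R273H (adjusted p = 0.000261) and 0.25 in G245S (adjusted p = 8.52e-05). TMEM70, an ATP synthase assembly factor, rose by 0.28 in R273H (adjusted p = 1.01e-06) and was the gene of this list called between the mutants, 0.13 lower in G245S (adjusted p = 0.0487), where DESeq2 called 0 of the list. COA3, which binds newly made MT-CO1, fell by 0.28 in R273H (adjusted p = 3.28e-06) and 0.22 in G245S (adjusted p = 0.000119), and UQCC2, which binds newly made cytochrome b, fell by 0.24 in R273H (adjusted p = 1.77e-05).

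Across the 9 dishes the members varied together, with Pearson correlations of log2 CPM from 0.73 to 0.94 over their 15 pairs (median 0.85), a description that includes the group differences and the shared depth and composition of each library. Among 12647 other genes that averaged 100 counts or more, the 5 whose profile was most like the mean of the members were EWSR1 (r = 0.98), GNAS (0.98), H4C16 (0.98), UQCRQ (0.98) and HNRNPAB (0.97), all nuclear. The closest mitochondrial gene was MT-ND5 (r = 0.97, rank 11), followed by MT-ND2 (0.91, rank 110), and MT-ND4L ran opposite (-0.77). In all, 176 genes had r over 0.9, so a profile with WT highest and R273H lowest was not particular to the mitochondrial genome.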

How the data were processed

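Ribosome footprints were counted in 9 libraries, 3 dishes for each of WT, G245S and R273H. The authors removed adapters with Trim Galore and rRNA reads with SortMeRNA, aligned reads to GRCh38 with STAR and deposited expected counts per gene, estimates that can be fractional, not normalized. The counting tool and the handling of strand and of reads with several matches are not given in the sources used here. rRNA and tRNA counts of the mitochondrial genome remain in the table. Footprints came from gradient monosomes, and mitochondrial ribosomes sediment apart from cytosolic ones, so how fully they were sampled is unknown, and no spike-in was used here.

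Expected counts were rounded and tested with edgeR 4.0.16 in R 4.3.3 (filterByExpr, TMM, robust quasi-likelihood F test, two-sided) in one fit of 9 libraries with group as the only term. Benjamini-Hochberg adjustment covered the 19820 genes tested, and a gene was called under 0.05. Totals were 18.7 to 24.6 M counts, and the biological coefficient of variation was 2.58%. CPM are the expected counts scaled by TMM library sizes; CPM per kb divides by the annotated gene length. Gene positions and exact nuclear copies of 30-base windows came from GENCODE v44 and the GRCh38 genome; 99.1% of gene identifiers matched. Alternatives were other normalizations (RLE, upper quartile, the total of the 13 mitochondrial protein genes), no filter, DESeq2 1.42.0, only the 6 libraries of a contrast, the dish number as a block, a spline trend on coding length and GC removed, pseudogene copies added and each dish left out. Copies added to all 13 genes, levels with copies, shares with each dish left out, nuclear lists with the trend removed and dish 3 left out of every group were added after seeing the data. The fit was tested on simulated data. The members and gene lists were chosen with earlier results of these data known. Named genes are the members, copies with a mean of at least 10 counts, up to 2 called genes in each direction per list and contrast, MDM2, CDKN1A and the 5 genes most like the members. Each list's p-values are those of the fit over all genes.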

Additional observations from a re-analysis of the deposited data

Results flagged for a closer look

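For 4 members the change from WT differed between the mutants, by the edgeR test of G245S against R273H, which is the difference of the changes because both share the WT dishes. The log2 differences, G245S minus R273H, were 0.094 for MT-CYB, 0.11 for MT-CO1, 0.11 for MT-CO3 and 0.13 for MT-ATP6, with all 3 G245S dishes above all 3 R273H dishes for each. The number of calls fell to 0 when the counts were scaled to the 13 mitochondrial protein genes, and also without G245S dish 1. It fell to 1 without G245S dish 2 or without R273H dish 2.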

How the results depend on the processing

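In R273H against WT, 6 members were called under every setting except scaling to the 13 mitochondrial protein genes, with 1. In G245S against WT, 1 member was called, and 2 under that scaling, with the length and GC trend removed, with copies added to the members and with copies added to all 13 genes; leaving out a dish gave 1 to 2 (2 without WT dish 1). In G245S against R273H, 4 were called, 0 under that scaling, 6 with the trend removed, 5 with only the 6 dishes compared, 5 without dish 3 of every group, 3 with upper-quartile normalization or no filter on low counts and 0 to 5 when a dish was left out; in R273H against WT leaving out a dish kept 6. The directions that turned were those of MT-CO1 (0.012) and MT-ATP6 (0.018) in G245S against WT and MT-CO3 (0.048) in R273H against WT, all under the scaling to 13 genes, of MT-ATP8 in G245S against WT with the trend removed (0.051), and of MT-CO3 in G245S against WT without WT dish 2 (-0.013) and without G245S dish 1 (-0.0088); leaving out dishes moved this last value between -0.013 and 0.041. The members are 59.3% of the denominator of the scaling to 13 genes in WT. The cause of these changes was not tested. The share taken by the members was 59.3%, 59.5% and 58.2% of the 13 genes in WT, G245S and R273H, and 0.241%, 0.228% and 0.214% of all counts with copies added.

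With the dish number as a replicate block, 3 members were called in G245S against WT, 6 in R273H against WT and 6 in G245S against R273H. Same-numbered dishes deviated together weakly, with positive correlations of 0.042 to 0.23 over 12656 genes, not all over 0.1. For dish 3 they were 0.11 to 0.23. Whether dishes of the same number share a step of preparation was not tested, and the main fit did not treat them as paired. Depth limited MT-ATP8 most, at about 1045 to 1300 counts per dish.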
